A study of Rattus norvegicus with 59 samples.

Results

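Across the genome of rat heart muscle cell nuclei, 730 stretches of chromatin carried more of the repressive histone mark H3K27me3 than the median stretch while carrying less than the median of H3K9me2. They were 730 of the 6156 H3K9me2 bins that H3K27me3 bins covered over at least 50% of their length, out of 6171 H3K9me2 bins in all, and they made up 11.9% of those bins and 8.80% of their length (222 Mb). A bin is a segment of a chromosome that the authors treated as a unit for 1 mark. Members were selected on a readout: for each H3K9me2 bin the log2 RPM (reads scaled to library size) of control and sham-operated rats was averaged and log2 of the bin's length in kb was taken off, the H3K27me3 RPM per kb of the overlapping H3K27me3 bins was averaged by length of overlap and put on the log2 scale, and a bin was kept when its H3K27me3 density lay above the median of all covered bins and its H3K9me2 density below. These medians were -1.49 log2 RPM per kb for H3K27me3 and -1.39 for H3K9me2. The levels in control and sham-operated rats therefore describe how the bins were chosen and are no finding, while the levels in trained and banded rats were not used.

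H3K27me3 is laid down by the EZH enzymes of Polycomb repressive complex 2 and is known for keeping developmental genes, and genes of other cell lineages, silent in differentiated cells. H3K9me2 is laid down mainly by the paired methyltransferases G9a and GLP, covers broad repressed domains and is enriched in chromatin at the nuclear periphery. Both marks are associated with repression, are written by separate enzymes and can lie on the same or on different stretches. In heart muscle, both systems are known to help hold fetal or non-cardiac genes down, and the series as titled concerned H3K9 methylation by G9a and GLP in heart growth under pressure.

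Male Sprague Dawley rats were the source, and left ventricle nuclei were sorted on PCM1, a protein of centriolar satellites that in the heart marks muscle cell nuclei. The exercise experiment held untrained control rats and rats given treadmill interval training for 6 weeks, all of about 280 g at the start. The surgery experiment held rats of about 170 g whose ascending aorta was banded for 6 weeks and sham-operated rats whose suture was not tightened, and banded rats entered only with a hypertrophied heart that had not failed. For each of the 4 groups the labels list 4 samples per mark, and age and genotype are not among the details used here. Chromatin was cut with micrococcal nuclease and precipitated with an antibody to H3K9me2 (Active Motif) or H3K27me3 (Millipore). The authors deposited 1 combined value per group, mark and bin, so no difference below has a replicate check, no test could be made, and every value is the authors' combined value for that group.

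The H3K9me2 columns of the 2 experiments ordered the genome differently, which touches every result below. Over 6156 bins, H3K9me2 densities of control and trained rats correlated with Pearson r = 0.98 (Spearman rho = 0.98), and those of sham-operated and banded rats with r = 0.86 (rho = 0.77). Between experiments the value was 0.41 (rho = 0.31) for control with sham-operated rats and 0.73 (rho = 0.70) for trained with banded rats. H3K27me3 densities correlated at 0.96 or above for every pair of groups. The correlation between the marks across the same bins was 0.79 in control and 0.78 in trained rats, and 0.22 in sham-operated and 0.34 in banded rats. The bins of such a correlation share their borders, their library sets and their sequence composition, and no value was available by which to separate these. The spread of H3K9me2 density was wider in the exercise columns (SD 0.48 in control and 0.44 in trained rats) than in the surgery columns (SD 0.28 in sham-operated and 0.29 in banded rats). Start weight, operation and experiment differed together between control and sham-operated rats and cannot be told apart.

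**Figure D1:**
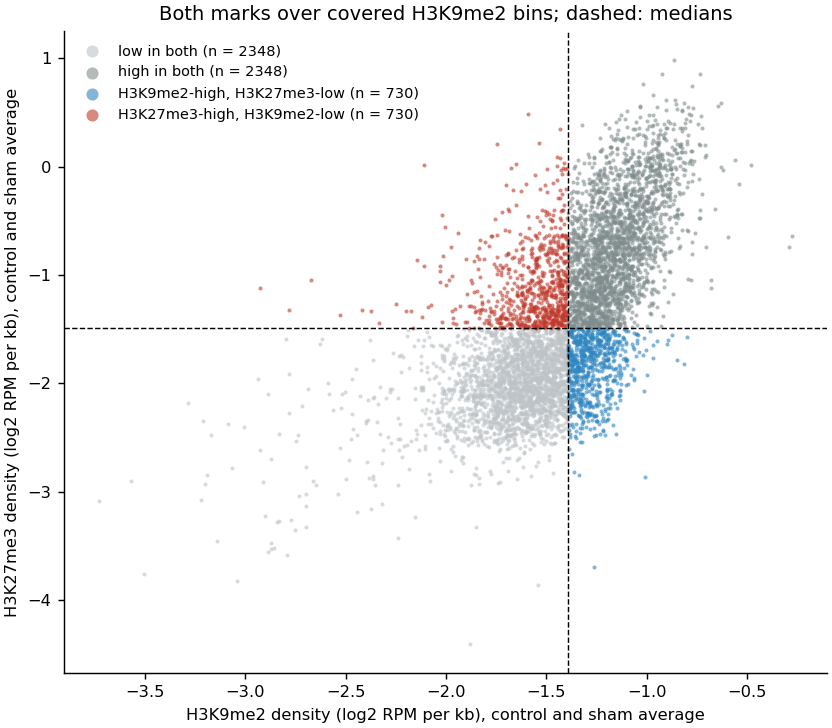
H3K27me3 density against H3K9me2 density (log2 RPM per kb, average of control and sham-operated rats), 1 point per covered H3K9me2 bin. Dashed lines are the medians, and the 730 members fill the upper left field, most of them close to a line.

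The members lay near the centre of both distributions rather than at an extreme. Their median H3K27me3 density was -1.19 (quartiles -1.37 and -0.88), against -0.75 in the 2348 bins high in both marks. Their median H3K9me2 density was -1.53, against -1.63 in the 2348 bins low in both marks. Of the 730 members, 283 lay within 0.1 of the H3K9me2 median, 155 within 0.1 of the H3K27me3 median and 390 (53.4%) within 0.1 of at least 1 of them. A set of 92 members lay at least 0.25 from both. Just inside the H3K9me2 median were chr14:79965001-80045001, chr3:170805001-170855001 and chr5:5275001-5365001, all at -1.39. Just outside it, and so counted as high in both marks, were chr4:116845001-117795001, chr1:154975001-154995001 and chr2:44405001-44525001, also at -1.39 after rounding. At the H3K27me3 median the nearest members were chr5:168115001-168325001, chr8:47035001-47925001 and chr5:107695001-108855001, all at -1.49. The nearest bins on the other side were chr18:65415001-66015001, chr2:166445001-166755001 and chr9:34965001-35865001, at -1.49 to -1.50. Within 0.1 of the threshold on the excluded side were 412 bins at the H3K9me2 median and 155 at the H3K27me3 median.

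By the median, members were slightly shorter than covered bins as a whole and close to bins low in both marks, but they held fewer long bins. Their median length was 170 kb (quartiles 90.0 and 368 kb, range 20 to 3350 kb), against 190 kb (quartiles 100 and 420 kb) over all covered bins. It was 180 kb (quartiles 90 and 400 kb) in bins low in both marks and 200 kb in bins high in both. In the opposite class, H3K9me2-high and H3K27me3-low, it was 220 kb. Mean length was 305 kb in members, 410 kb over all covered bins and 462 kb in bins low in both marks. Of the 730 members, 28.6% were under 100 kb and 35 were longer than or equal to 1000 kb. Of all 6156 covered bins, 24.2% and 539 were, and of the 2348 bins low in both, 25.3% and 240. Bins of 1000 kb or more were thus a smaller share of the members than of either. The 209 members under 100 kb had a median gap between the marks (H3K27me3 minus H3K9me2 density) of 0.47 log2 units. The 391 members of 100 to 490 kb had 0.43 and the 130 of 500 kb or more had 0.28, so long members had a smaller gap. Density contains length, so this order is not independent of the rule. The shortest member was chr18:24715001-24735001 (20 kb), with H3K27me3 densities of 0.18 in control, 0.21 in trained, -0.12 in sham-operated and -0.26 in banded rats. The longest was chr1:159735001-163085001 (3350 kb, 8 H3K27me3 bins), whose H3K27me3 density lay between -1.50 and -1.44 in the 4 groups and whose H3K9me2 density lay between -1.62 and -1.56. Its H3K9me2 was below the median of each group. Its H3K27me3 was above the group's median in control and trained rats only, so it was discordant in 2 groups.

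The widest gaps between the marks were found in bins of 30 to 800 kb. Coordinates are those of the deposited tables. The sources used here do not name their genome build, and genes could not be placed in them. On chr8:126475001-126845001 (370 kb) the H3K27me3 density was 0.15 in control, 0.13 in trained, -0.13 in sham-operated and -0.19 in banded rats. The H3K9me2 density there was -1.78, -1.89, -2.45 and -2.48 in the same order. Its gap of 2.13 log2 units over control and sham-operated rats was the largest among the members, and it was discordant in each of the 4 groups by that group's own medians. In chr4:149975001-150775001 (800 kb, gap 2.08) the H3K27me3 density was higher still, at 0.63 in control, 0.57 in trained, 0.33 in sham-operated and 0.23 in banded rats. Its H3K9me2 density was -1.26 in control and trained rats and -1.92 in sham-operated and banded rats, so it was discordant only in the surgery experiment. The bin of 80 kb at chr8:48315001-48395001 (gap 1.95) had H3K9me2 densities of -1.56, -1.53, -1.93 and -1.96 and H3K27me3 densities of 0.24, 0.24, 0.17 and 0.05 in control, trained, sham-operated and banded rats. It was covered whole and was discordant in all 4 groups. Its single H3K27me3 bin lay mostly outside it, so the H3K27me3 density there is that of a longer segment.

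Among the 10 members with the largest gap were bins that differed in which mark set them apart. On chr20:2075001-2675001 (600 kb, gap 1.81) H3K27me3 was moderate, at -1.07, -1.10, -1.17 and -1.20 in control, trained, sham-operated and banded rats. H3K9me2 there was the lowest of all members on the average of control and sham-operated rats, and stood at -2.78, -2.71, -3.08 and -2.86 in the same order. The same held for chr1:13925001-14245001 (320 kb, gap 1.63), with H3K9me2 between -2.73 and -2.67 and H3K27me3 between -1.05 and -1.0 in all 4 groups. In contrast, chr11:31035001-31065001 (30 kb, gap 1.78) and chr17:15845001-15895001 (50 kb, gap 1.75) had high H3K27me3 in all groups but low H3K9me2 in the surgery columns only. H3K9me2 on chr11:31035001-31065001 was -0.91 in control, -1.14 in trained, -1.95 in sham-operated and -2.11 in banded rats. On chr17:15845001-15895001 it was -1.21, -1.21, -1.87 and -1.86. The remaining members of that list were chr14:79355001-79475001 (gap 1.67), chr7:139805001-139875001 (gap 1.66) and chr10:71835001-71975001 (gap 1.57). Of the 10, 6 were discordant in all 4 groups, 1 in 3 groups and 3 in 2 groups.

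How much of a bin the H3K27me3 table covered moved with the gap. The 32 members covered under 80% had a median gap of 0.80, against 0.39 in the 698 others, and they took 2 places among the 10 largest gaps (51.4% and 58.8% covered). Among members of 500 kb or more, 3 of the 5 largest gaps were of this kind: chr4:149975001-150775001 (58.8%), chr10:42745001-43605001 (61.6%, gap 1.19) and chr1:178245001-179445001 (50.0%, gap 1.16). The other 2 were chr20:2075001-2675001 and chr20:4265001-4765001 (500 kb, gap 1.13, covered whole). A stretch that the H3K27me3 table leaves out still counts in the length by which H3K9me2 was divided. With the H3K9me2 RPM divided by the covered length instead, the rule kept 711 bins, 671 of them members. With whole cover required, it kept 603, of which 581 were members.

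H3K27me3 was not even within the members. A single H3K27me3 bin lay over 284 of them (38.9%). In the 446 others the overlapping bins spanned a median range of 1.25 log2 units. That range was 1.06 in bins high in both marks, 1.12 in bins low in both and 0.93 in the opposite class. All of the length lay above the H3K27me3 median in 359 members (49.2%), against 67.2% of the bins high in both marks. At least 50% of the length of some H3K27me3 bin lay inside 524 of the 730 members. This was so for 1926 of the 2348 bins high in both marks, 1826 of the 2348 low in both and 547 of the 730 of the opposite class. In the other members every overlapping H3K27me3 bin lay mostly outside, so their density rests on stretches that reach beyond the member. In 150 members the length above the median was under 50%, so that the average rested on a smaller dense stretch. This was so in chr16:19065001-19765001 (700 kb), with 11.4% of its length above the median. Single dense bins also lay in members of moderate average whose length was mostly above the median. The member chr8:83175001-84805001 (1630 kb), with 86.4% of its length above the median and an H3K27me3 density of -1.30, held an H3K27me3 bin of 80 kb, chr8:83455001-83535001, at 0.35 in control, 0.39 in trained, -0.10 in sham-operated and -0.34 in banded rats. The densest H3K27me3 bin with at least 50% of its length inside a member was chr4:149975001-150435001 (460 kb), at 0.64, 0.58, 0.34 and 0.24 in the same order. Next came chr10:104605001-104695001 (90 kb), inside the member chr10:103735001-105225001, at 0.40, 0.32, 0.06 and 0.02. The adjoining member chr10:105225001-105475001 held chr10:105385001-105435001 (50 kb) at 0.33, 0.33, -0.03 and 0.00, so that 2 of the 5 densest held bins lay in touching members of chromosome 10. The other was chr6:28695001-28745001 (50 kb), in the member chr6:28575001-28755001, at 0.34, 0.39, -0.06 and -0.06. In each of these 5 bins the 2 surgery columns were lower than the 2 exercise columns. This order was not particular to them. H3K27me3 was lower in sham-operated than in control rats in 1870 of the 2348 bins high in both marks (median -0.13) and in 474 of the 730 members (median -0.06).

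The density of all 730 members in each group is given next, with the groups that were not used for the choice. Median H3K9me2 density was -1.50 in control, -1.50 in trained, -1.59 in sham-operated and -1.60 in banded rats. Median H3K27me3 density was -1.16, -1.18, -1.21 and -1.22 in the same order. The members were placed differently among the other bins in the 2 experiments. In control rats their median H3K9me2 lay between those of bins high in both marks (-0.997) and low in both (-1.81). In sham-operated rats it lay below both of these (-1.31 and -1.46), as it did in banded rats (-1.25 and -1.53).

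**Figure D2:**
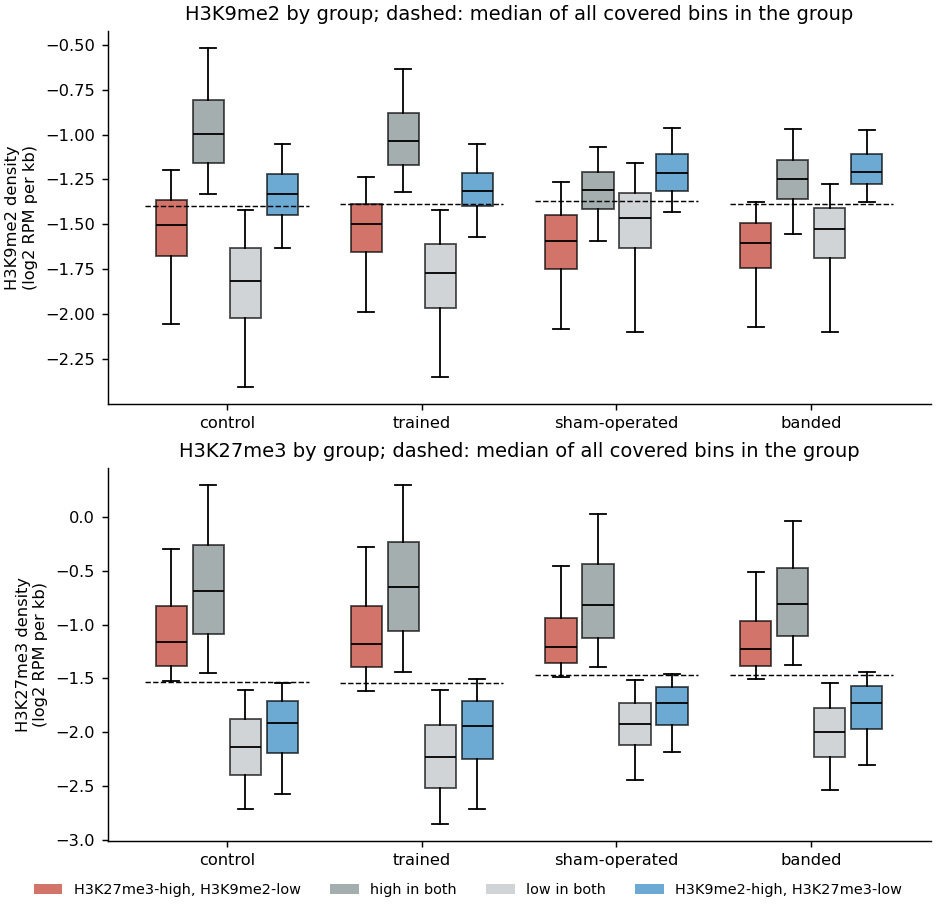
H3K9me2 (upper) and H3K27me3 (lower) density in log2 RPM per kb by group and class of bin. Boxes are quartiles with the median, whiskers the 5th and 95th percentiles over bins, and the dashed line is the median of all covered bins; the red boxes (members) are below the line for H3K9me2 and above it for H3K27me3 in all 4 groups, by their medians.

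Each group was then classified by the medians of its own columns. In banded rats 621 of the 730 members (85.1%) were still above the H3K27me3 and below the H3K9me2 median, where 18.5% of all covered bins were (1141 bins). In trained rats 485 members (66.4%) were, where 9.37% of all covered bins were (577 bins). The banded and trained columns were not used by the rule, but each comes from the same experiment as 1 of the columns that were, so these shares are not independent of the choice of members. In the columns that set the rule, 549 bins were discordant in control rats alone (468 of them members) and 1376 in sham-operated rats alone (555 members). Members that were not discordant in trained rats failed on H3K9me2 alone in 177 of 245 cases and on H3K27me3 alone in 65. In banded rats the order was the other way round, with 33 of 109 failing on H3K9me2 alone and 70 on H3K27me3 alone. The members lost in trained rats lay a median of 0.04 from the nearer threshold and those kept 0.13. In banded rats the values were 0.03 for lost and 0.11 for kept members.

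**Figure D3:**
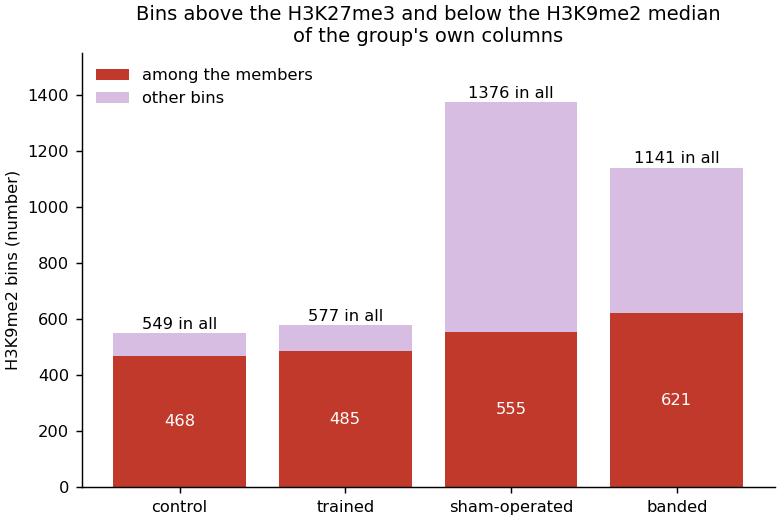
Number of H3K9me2 bins above the H3K27me3 median and below the H3K9me2 median when each group is classified by its own columns, split into members (red) and other bins (violet). The surgery groups hold 1376 and 1141 such bins and the exercise groups 549 and 577, while members number 468 to 621 in every group.

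A core of 280 members (38.4%) was discordant in all 4 groups, out of 281 such bins among all covered bins. Bins discordant in both control and sham-operated rats nearly always passed the rule on their average (330 of 331). The 280 of 281 therefore follows from the rule and is no finding. The core was like the other members in length (median 175 kb against 170 kb) and had a median gap of 0.52, against 0.32 in the other 450. That gap is measured in the columns that set the rule, so its order is not independent of the choice. A further 176 members were discordant in 3 groups, 222 in 2, 37 in 1 and 15 in none. Of all 6156 covered bins, 192 were discordant in 3 groups, 681 in 2, 581 in 1 and 4421 in none. The 15 members discordant in no group passed only on the average of control and sham-operated rats. One of them was chr16:19065001-19765001 (700 kb), with H3K9me2 of -2.09, -1.95, -1.25 and -1.70 and H3K27me3 of -1.56, -1.78, -1.27 and -1.50 in control, trained, sham-operated and banded rats. Its control and trained values were low for both marks and its sham-operated values high for both. Of 563 covered bins discordant in both surgery groups and in neither exercise group, 154 were members. Of 85 covered bins of the opposite kind, 45 were members.

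The surgery columns held many discordant bins that the rule did not keep. Of the 821 non-members discordant in sham-operated rats, 779 were high in both marks by the average of control and sham-operated rats. In banded rats 486 of 520 were of that kind. In control rats it was 43 of 81 and in trained rats 38 of 92. Bins discordant in sham-operated and banded rats overlapped by 928, which is 67.4% of the sham-operated and 81.3% of the banded set. Those of control and trained rats overlapped by 474, or 86.3% and 82.1%. Control and sham-operated rats shared 331 bins, which is 60.3% of the control set and 24.1% of the sham-operated set.

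Differences between banded and sham-operated rats in the members were small. Median H3K9me2 density was -1.60 in banded and -1.59 in sham-operated rats, and the median difference per member was -0.02 (quartiles -0.14 and 0.10, range -0.45 to 0.49), against 0.01 over all covered bins. No member passed a difference of 0.5 (log2), and 0.146% of all covered bins did. At a lower size of 0.25, 29 members were higher and 63 lower in banded rats (92 in all, 12.6%), where 10.5% of all covered bins passed. Both shares are near the background. For H3K27me3 the median difference was -0.03, against -0.02 over all covered bins. No member passed 0.5 (0.0325% of all covered bins), and 3 members passed 0.25, all lower in banded rats, where 2.66% of all covered bins passed. The sham-operated columns helped choose the members, so these differences share columns with the rule.

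The members with the largest single differences between banded and sham-operated rats were short, apart from chr16:19065001-19765001, which had the largest H3K9me2 loss (-0.45, from -1.25 to -1.70). The largest H3K9me2 gain was on chr19:75001-125001 (50 kb), from -1.60 in sham-operated to -1.11 in banded rats (0.49). This bin begins 75 kb from the start of the chromosome's coordinates. The largest H3K27me3 gain was on chr20:10615001-10665001 (50 kb), from -1.18 to -0.98 (0.20), and the largest loss on chr2:180115001-180205001 (90 kb), from -1.44 to -1.72 (-0.29). These are the ends of a distribution over 730 bins, and whether they exceed the spread between samples was not testable.

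Differences between trained and control rats were smaller still for H3K9me2. The median difference over members was 0.00 (quartiles -0.05 and 0.05, range -0.41 to 0.37), with 364 members higher and 364 lower in trained rats. No member passed 0.5 for H3K9me2, where 0.0487% of all covered bins did, and none did for H3K27me3, where the share was also 0.0487%. At 0.25, 9 members passed for H3K9me2 (5 higher and 4 lower in trained rats; 1.66% of all covered bins) and 1 for H3K27me3 (lower; 2.39% of all covered bins). The median H3K27me3 difference was -0.01, as over all covered bins. The largest H3K9me2 gain was again on chr19:75001-125001, from -1.97 in control to -1.60 in trained rats (0.37), and H3K27me3 there was between -1.42 and -1.25 in the 4 groups. The largest H3K9me2 loss was on chr1:236485001-236515001 (30 kb), from -1.74 to -2.15 (-0.41), a bin discordant in all 4 groups. For H3K27me3 the largest gain was 0.18 on chr13:86125001-86145001 (20 kb, -1.49 to -1.31) and the largest loss -0.26 on chr10:14615001-14725001 (110 kb, -1.04 to -1.30).

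To look at each experiment in bins that its own columns had not chosen, bins discordant in the reference group of the other experiment were taken. This choice was not neutral. Control H3K9me2 correlated at 0.68 with banded and 0.41 with sham-operated rats, and sham-operated H3K9me2 at 0.49 with trained and 0.41 with control rats. How far the choice itself shapes the differences below was not tested. In the 549 bins discordant in control rats, H3K9me2 was lower in banded than in sham-operated rats in 362 and higher in 187 (34.1%, against 53.8% of all covered bins), with a median difference of -0.06. H3K27me3 was lower in 371 of them and higher in 178 (32.4%, against 38.5%), with a median of -0.03. Of these 549 bins, 468 were members, 43 were high in both marks and 37 low in both by the average of control and sham-operated rats. Over all 730 members, H3K9me2 was higher in banded rats in 44.8% (median -0.02) and H3K27me3 in 36.2% (median -0.03). Over the 2348 bins low in both marks, H3K9me2 was higher in banded rats in 36.6% (median -0.07) and H3K27me3 in 29.8% (median -0.06). In the 1376 bins discordant in sham-operated rats, H3K9me2 was lower in trained than in control rats in 987 and higher in 386 (28.1%, against 50.1%), with a median of -0.05. There H3K27me3 was higher in 759 and lower in 613 (55.2%, against 41.9%), with a median of 0.01. Of these 1376 bins, 779 were high in both marks by the average of control and sham-operated rats, and over all 2348 bins of that class H3K9me2 was higher in trained rats in 28.9% (median -0.04) and H3K27me3 in 63.0%. The H3K9me2 share in the 1376 bins is thus near that of the class most of them come from. All of these medians were under 0.1 log2 units. No bin of the sets of 549 and 1376 passed 0.5 for either mark.

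Between sham-operated and control rats, which belong to different experiments and both served the rule, the members' values moved much more. The median H3K9me2 difference was -0.11 (range -1.08 to 1.30), and 120 members passed 0.5, 47 of them higher and 73 lower in sham-operated rats, where 26.6% of all covered bins passed. The median over all covered bins was -0.02, over bins high in both marks -0.32 and over bins low in both 0.33. For H3K27me3 the median over members was -0.06, and 3 members passed 0.5 (1 higher, 2 lower), where 3.04% of all covered bins did. At 0.25, 385 members passed for H3K9me2 (52.7%, where 57.8% of all covered bins did) and 117 for H3K27me3 (16.03%, where 29.5% did). At 1, 8 members passed for H3K9me2 (2.1% of all covered bins) and 0 for H3K27me3 (0.0975% of all covered bins). The largest H3K9me2 differences were on chr15:33035001-33125001 (90 kb), from -2.53 in control to -1.23 in sham-operated rats, and on chr10:71255001-71305001 (50 kb), from -0.94 to -2.03. Trained and banded rats lay next to the reference group of their own experiment in both bins, at -2.35 and -1.50 in the former and -1.08 and -1.79 in the latter. For H3K27me3 the extremes were chr9:74575001-74895001 (320 kb, -1.74 to -1.22) and chr1:107115001-107155001 (40 kb, -0.54 to -1.23). Since both groups set the members, nothing is read from these counts.

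**Figure D4:**
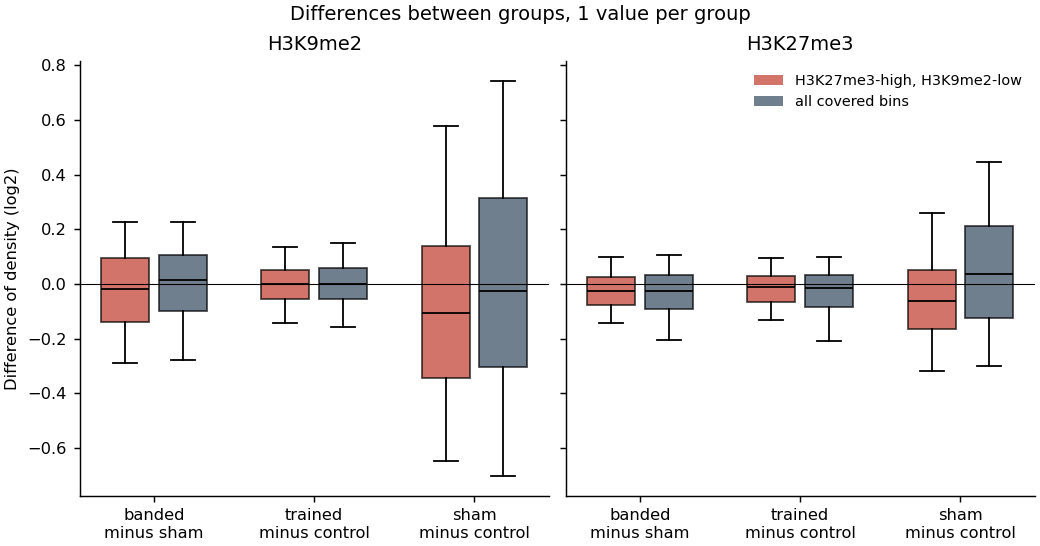
Difference of density (log2) per bin for each pair of groups, for H3K9me2 (left) and H3K27me3 (right); boxes are quartiles with the median and whiskers the 5th and 95th percentiles over bins. Members (red) and all covered bins (dark) are both centred near 0 within each experiment, and the widest boxes are those of H3K9me2 in sham-operated against control rats.

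Members were spread over all 20 chromosomes of the tables, and their share of bins varied. Chromosome 12 had the highest share, 32 of 169 covered bins (18.9%), then chromosome 10 with 64 of 369 (17.3%), chromosome 7 (16.4%), chromosome 20 (16.2%) and chromosome 5 (15.8%). The lowest share was on chromosome 11, with 10 of 168 (5.95%), then chromosome 6 (7.41%) and chromosome 9 (7.69%). By length, chromosome 12 was highest again (16.4%) and chromosome 15 lowest (2.98%). Chromosomes 12 and 10 also had the most bins per 10 Mb (36.9 and 34.2), and chromosome 2 the fewest (18.7), with 19.3 on chromosome 11. In the banded columns, which the rule did not use, discordant bins made up 30.2% of the covered bins of chromosome 12, 29.0% of chromosome 10 and 10.1% of chromosome 11. The trained columns gave 13.0%, 13.6% and 5.36%. Both columns not used by the rule had higher shares on chromosomes 12 and 10 than on chromosome 11. These chromosomes were named for their extreme share of members, and each unused column comes from the same experiment as a column of the rule. The order is therefore a description and no separate support. Bins on 1 chromosome are neighbours and are not independent, and no test was made of the shares.

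**Figure D5:**
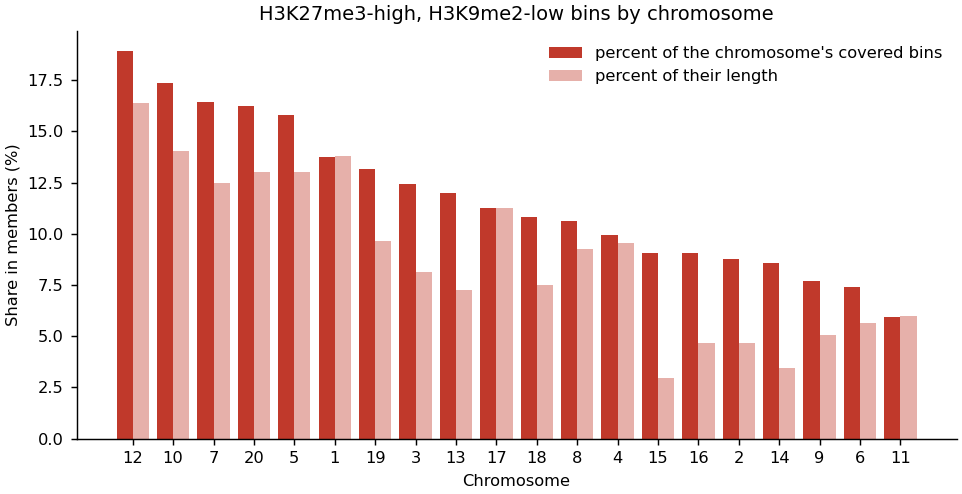
Share of each chromosome's covered H3K9me2 bins (dark red) and of their length (light red) that belongs to the members, in percent, with chromosomes in order of the former. Chromosome 12 stands at 18.9% of bins and chromosome 11 at 5.95%.

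How the share of members near the chromosome ends compared with that of all covered bins depended on the distance and the side. Within 5 Mb of the outermost bins lay 83 members (11.4%), against 9.37% of all covered bins, with 27 on the side of the chromosome's start (3.70%, against 4.13%) and 56 on the far side (7.67%, against 5.25%). Within 2 Mb it was 3.56% against 3.93% and within 10 Mb 22.6% against 18.4%. The share of members was therefore above that of all bins at 5 and 10 Mb and below it at 2 Mb.

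Most members stood alone between bins of another class, and their borders met a member about as often as those of all covered bins. Of the 1266 member borders that touched a further bin, 556 (43.9%) touched a bin high in both marks, 475 (37.5%) a bin low in both, 168 (13.3%) another member and 65 (5.13%) a bin of the opposite class. For all covered bins, 38.5% of touching borders met a bin high in both marks and 37.6% a bin low in both. A member was met by 11.8% of these borders and a bin of the opposite class by 11.9%. Among the 554 members with a touching neighbour on each side, 142 (25.6%, against 19.1% of the 4665 covered bins with such neighbours) lay between 2 bins high in both marks. At a step from high in both to low in both were 135 (24.4%, against 23.3%), and between 2 bins low in both 106 (19.1%, against 17.3%). H3K9me2 was below both neighbours in 270 of these members (48.7%, against 35.4% of all bins with neighbours). H3K27me3 was above both in 191 (34.5%, against 30.5%). A dip of H3K9me2 and a peak of H3K27me3 in the same bin was seen in 47 members (8.48%, against 2.12%). The dip alone was seen in 223 (40.3%, against 33.3%), the peak alone in 144 (26.0%, against 28.4%) and neither in 140 (25.3%, against 36.2%). The rule favours low H3K9me2 and high H3K27me3, so these counts describe the bins and their surroundings.

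Touching members formed 71 runs of more than 1 bin, with 155 members in them, and the other 575 (78.8%) were single. The runs with the most bins had 4, on chr20:6265001-7535001 (1270 kb) and chr7:67135001-67895001 (760 kb). In the former, H3K9me2 was -1.96 in control, -1.88 in trained, -1.55 in sham-operated and -1.82 in banded rats, with H3K27me3 at -1.49, -1.67, -1.17 and -1.26. In the latter, H3K9me2 was between -1.62 and -1.52 and H3K27me3 between -1.17 and -1.07 in the 4 groups. After the single bin of 3350 kb on chromosome 1, the longest stretches were chr4:22095001-25245001 (2 bins, 3150 kb), chr1:184045001-186715001 (2 bins, 2670 kb), chr1:63915001-66135001 (1 bin, 2220 kb) and chr18:29655001-31775001 (2 bins, 2120 kb). In these 4 stretches H3K27me3 stayed between -1.51 and -1.14 and H3K9me2 between -1.69 and -1.33 in every group. The longest stretches thus held the moderate values seen in long members as a whole.

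Borders of the 2 tables were compared last. Of the 1460 borders of members, 434 (29.7%) fell on the same base as a border of the H3K27me3 table, against 32.0% for all covered bins, and 745 (51.0%) lay within 10 kb of one, against 53.8%. Both borders coincided in 87 members (11.9%), against 11.3% of all covered bins. Member borders were thus about as often shared between the tables as those of other bins.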

How the data were processed

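Chromatin of PCM1-positive nuclei was profiled in 32 samples (4 groups, 2 marks, 4 samples each) of a series of 59. Per the file headers, the authors deposited log2 RPM per bin as 1 column per group and mark. Circular binary segmentation made the bins (per the file names), from samples that are not stated. Tools listed in the submitters' processing notes, with no role given, are edgeR, R 2.15.1, SAMtools and Bowtie. The sources used here state neither the build, nor the depth per sample, nor how samples were combined, and no input column was used, so mappability was not tested. There were 6171 H3K9me2 and 9703 H3K27me3 bins, on 20 chromosomes. Each column summed to about 0.967 M RPM, and sorted values of a mark's columns were nearly identical (median gap at most 0.000324 from the control column), so a shift over the whole genome would not show.

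Densities, overlaps (neighbouring H3K27me3 bins overlap by 2 bases and were trimmed) and medians were computed with numpy 2.4.6, pandas 2.3.3 and scipy 1.17.1 under Python 3.11.15, tested on simulated data, and drawn with matplotlib 3.10.9. H3K9me2 bins covered under 50% were left out (15 bins, 5.13 Mb). With 1 value per group, differences over 0.5 on the log2 scale were counted and no test was run. Regions were named by rule: the 10 largest gaps and the 5 largest at 500 kb or more, the largest gain and loss per mark and pair of groups, the 5 longest runs, the 3 bins on each side nearest a median, the longest and shortest member, the 5 members holding the densest H3K27me3 bins and chromosomes of extreme share. The runs with most bins were added after their values were seen. The members and lists were chosen with earlier results of these data known. RNA tables were not used, since their gene identifiers could not be placed on the bins or paired with names here. Cell type markers were therefore not checked, and no sequence is shown.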

Additional observations from a re-analysis of the deposited data

How the results depend on the processing

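Of 61 alternative values for 18 results, 32 stayed within the tolerance (a factor of 1.5 for counts, the 95% order-statistic interval for medians) and 29 did not. The rule kept 272 bins with the 60th and 40th percentiles in place of the medians and 1376 with sham-operated rats alone; under the other alternatives for its size it kept 542 to 898. The median H3K9me2 difference of banded minus sham-operated rats became -0.057 in bins set by control rats alone and 0.0050 when weighted by length, which turns its direction; that of H3K27me3 became -0.0018 relative to the median of all bins, -0.018 weighted by length and -0.039 with the stricter percentiles. For trained minus control rats, H3K9me2 became -0.047 in bins set by sham-operated rats alone and -0.0063 with the stricter percentiles, and H3K27me3 turned to 0.0069 in the former and to 0.0023 relative to all bins. For sham-operated minus control rats, H3K9me2 became -0.081 weighted by length and -0.208 with the stricter percentiles, and H3K27me3 -0.096 relative to all bins, -0.037 weighted by length and -0.105 with the stricter percentiles. Counts past the fold depended on its size. At 0.25, 92 members passed for H3K9me2 and 3 for H3K27me3 in banded rats (10.5% and 2.66% of all covered bins). In trained rats 9 and 1 did (1.66% and 2.39%). Between sham-operated and control rats 385 and 117 did (57.8% and 29.5%). At 1 the last 2 counts were 8 and 0 (2.1% and 0.0975% of all covered bins). With the 10th percentile as a pseudocount they were 38 and 1. No share over all covered bins was at hand for that setting, so nothing is read from those 2 counts. Median length was 270 kb without bins under 100 kb, by construction. The share near chromosome ends was 3.56% at 2 Mb and 22.6% at 10 Mb. Beyond the alternatives that change a threshold, a set of bins or a weighting by their own construction, the cause was not tested. The alternatives for cover above (711 and 603 bins) were chosen after seeing the data. An alternative without the X chromosome was not run, since the tables hold chromosomes 1 to 20 only. No paired analysis was possible because each group has 1 combined value per bin, and no sample could be left out for the same reason.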
